A study of Mus musculus with 12 samples.

Results

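Embryoid bodies that had lost Trim33 were compared between day 2.5 and day 2 of differentiation, with 3 libraries on each day, which is 6 of the 12 libraries of the series. Embryoid bodies are the clusters that mouse embryonic stem cells form in suspension once the factors that hold them undifferentiated are withdrawn. The libraries were chosen by their titles, 1 of which is written "Day2 Trim33-deficient" without a space. The groups were day 2.5 Trim33-deficient, day 2 Trim33-deficient, day 2.5 control and day 2 control bodies, with 3 libraries each.

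Per the labels, all lines were derived from embryos of an outbred strain with both Trim33 alleles floxed and a UbcCreERT2 transgene, a Cre recombinase under the broadly active ubiquitin C promoter that 4OH-Tamoxifen switches on. The cells were at passages 8 to 10 and had been grown with LIF and 2i and no feeder cells, and 4OH-Tamoxifen was given on day 1 to delete Trim33. The notes on the alleles and the drug are the same for all samples, while the genotype of the control libraries is given as wildtype. How the 2 go together, and whether controls received the drug, is not given in the sources used here. The deletion and the drug therefore cannot be told apart in any comparison with control. Trim33-deficient bodies of the later day were also longer past the drug and the start of the deletion. Time in differentiation and time since the drug or the deletion therefore cannot be told apart in any change between the days in these bodies. The number of lines and clones behind the libraries, and the number of bodies pooled in each, are likewise not given beyond the words "independent pairs".

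TRIM33 is a nuclear protein of the TIF1 family that reads histone H3 tails and works with SMAD proteins downstream of Nodal and other TGF-beta ligands. In the mouse embryo Nodal, Wnt and BMP signals start the primitive streak in the epiblast, and embryoid bodies pass through related steps: naive pluripotency genes are shut, genes of the formative and primed epiblast open, and streak genes such as T follow. A rare part of mouse embryonic stem cell cultures instead enters a two-cell-like state, in which the transcription factor Dux switches on genes of the two-cell embryo such as the Zscan4 cluster and Zfp352.

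The libraries held 10066338 to 16529627 counts assigned to genes, and 14356 of 24015 gene rows passed the filter on low counts. Values are CPM, counts scaled for library size with factors from the TMM method. A count of 3 equals 0.179 to 0.318 CPM, which covers counting error only. The ribosomal RNA precursor Rn45s took 1.67, 1.53 and 1.08% of assigned counts in the day 2.5 Trim33-deficient libraries and 7.87, 0.636 and 0.688% in those of day 2, where replicate 1 stood apart. Among controls, day 2.5 replicate 2 stood apart at 11.9%. No pair of libraries agreed within sampling noise. The part that library preparation plays in the changes below was not tested. Counts of changed genes above 3 that moved by over 1.5 times without a library are given with their value or range, but not all smaller counts are.

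Trim33 itself had 54.4, 57.6 and 62.8 CPM on day 2.5, against 60.5, 69.6 and 68.0 CPM on day 2 in Trim33-deficient bodies. The 3 control libraries of day 2.5 held 264, 247 and 239 CPM and those of day 2 275, 261 and 277 CPM, so that Trim33-deficient means were 23.3% and 24.4% of control on day 2.5 and day 2. The labels and the counts of the target gene went together in all 12 libraries. Which exons are removed is not given in the sources used here, and counts over the whole gene do not separate undeleted copies from transcripts of the deleted allele. Between the days the level in Trim33-deficient bodies did not pass the test (log2 fold change -0.18 ± 0.07, adjusted p = 0.0705). Of the other TIF1 genes, Trim24, Trim28 and Trim66 did not pass either.

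1305 genes rose and 995 fell between day 2 and day 2.5 in Trim33-deficient bodies, at an adjusted p under 0.05 (edgeR's quasi-likelihood test with Benjamini-Hochberg adjustment over 14356 genes). These were 16.0% of the tested genes, 9.09% higher and 6.93% lower, and these shares are the background for every count of a gene group below. The rises were larger than the falls. The median log2 fold change was 0.54 among the genes that rose and -0.28 among those that fell, 309 rises and 26 falls passed 2-fold, and 103 rises and 1 fall passed 4-fold. The values of the 3 libraries of each day did not overlap for 1285 of the genes that rose and 971 of those that fell. The calls use the same libraries, so this is no separate support for them. The share without overlap among all tested genes is not given here. Gene lists are described by counts of members past the threshold. Of 41 list counts of 1 to 3 genes in Trim33-deficient bodies, 31 moved by over 1.5 times when some single library was left out. These small counts rest on few genes and libraries. Of 19 such counts above 3, 11 moved as far. Over all tested genes the median log2 fold change was -0.0044. The count of changed genes was 1101 without day 2 replicate 2, 1308 without day 2 replicate 3, 1213 without day 2.5 replicate 1 and 1244 without day 2.5 replicate 2, and it was 2215 without the library rich in Rn45s.

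**Figure D1:**
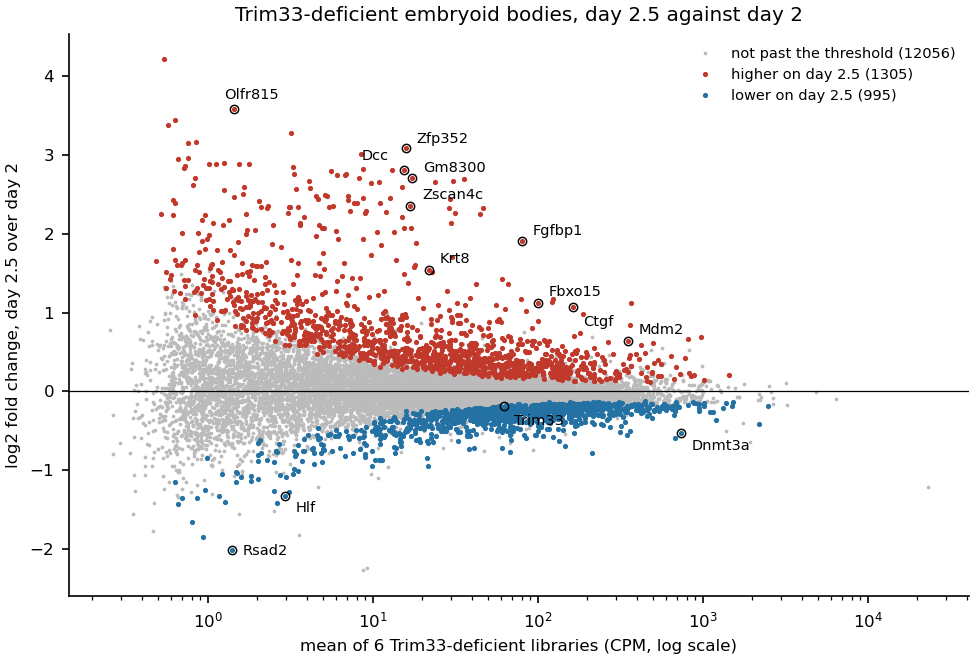
Log2 fold change of day 2.5 over day 2 in Trim33-deficient bodies (vertical axis) against the mean level in the 6 libraries (horizontal axis, CPM on a log scale), 1 point per tested gene. Grey points did not pass an adjusted p of 0.05, coloured points did, and labelled genes are described in the text. The 1305 rises reach further from 0 than the 995 falls, and the labelled Zfp352, Gm8300 and Zscan4c, of the two-cell-like list, are among the largest rises.

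Genes of the two-cell-like state rose almost without exception. Of 19 tested members of that list, 18 rose and 0 fell, with a median log2 fold change of 2.39 over the tested members, the largest of all lists. The 1 member that did not pass was Eif1a, and Tcstv1, Tcstv3 and Gm4340 did not pass the filter on low counts. The 18 rises held under each of the alternatives run, leaving out each library included. In control bodies 7 members rose and 0 fell (of all tested genes 8.20% rose there and 7.91% fell), with a median log2 fold change of 0.76, and between 2 and 13 rose when single libraries were left out. In the test of the difference between the 2 changes over time, 12 members changed more upward in Trim33-deficient bodies (2.77% of all tested genes) and 0 more downward (1.24%). Of the 18 that rose, Dux, Zfp352, Tdpoz1, Tdpoz3, Zscan4b and Zscan4e did not pass this test of the difference from control. Zscan4c, a member of the Zscan4 cluster that is known for telomere maintenance in embryonic stem cells, had 30.6, 28.5 and 24.998 CPM on day 2.5, against 7.85, 4.13 and 5.10 CPM on day 2. Zscan4d had 71.9, 78.0 and 69.5 CPM on day 2.5, against 21.2, 12.4 and 13.6 CPM on day 2. Zscan4f had 13.5, 13.2 and 12.3 CPM on day 2.5, against 2.65, 1.94 and 2.89 CPM on day 2. In all 3 genes each day 2.5 library lay above each day 2 library (log2 fold change 2.35 ± 0.22, adjusted p = 1.97e-05 for Zscan4c).

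Dux, the transcription factor at the head of this programme, had 4.15, 4.54 and 4.46 CPM on day 2.5, against 1.17, 1.31 and 1.17 CPM on day 2 (log2 fold change 1.84 ± 0.25, adjusted p = 0.00017). The groups did not overlap. Zfp352, a zinc finger gene of the two-cell embryo, had 29.0, 28.4 and 27.974 CPM on day 2.5, against 5.62, 2.63 and 2.46 CPM on day 2 (log2 fold change 3.09 ± 0.34, adjusted p = 0.000204). Gm8300 had 28.9, 31.1 and 30.3 CPM on day 2.5, against 6.05, 4.44 and 3.81 CPM on day 2 (log2 fold change 2.70 ± 0.19, adjusted p = 1.14e-06). Usp17lc, of a family of ubiquitin proteases, had 25.2, 27.1 and 24.8 CPM on day 2.5, against 5.94, 3.81 and 3.5033 CPM on day 2. Arg2, the mitochondrial arginase, and Tmem92, a membrane protein, were members that are not part of a large repeated family. Arg2 had 22.4, 20.3 and 17.3 CPM on day 2.5, against 5.41, 3.31 and 3.99 CPM on day 2 (log2 fold change 2.27 ± 0.21, adjusted p = 7.11e-06). Tmem92 had 31.2, 26.1 and 24.9 CPM on day 2.5, against 8.59, 5.56 and 5.96 CPM on day 2 (log2 fold change 2.07 ± 0.18, adjusted p = 3.56e-06). Most other members belong to families of near-identical genes, so how the authors' counting split reads among the copies is uncertain for each single gene. The RNA came from whole bodies, where fewer cells of a type and less RNA per cell cannot be told apart, here and in every result below.

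The Zscan4 copies show how alike these genes are. Their promoters are printed because the copies moved together; they were chosen after their values were seen. Each line gives the 150 bases before the RefSeq start (build GRCm38.p6, 5′ to 3′ on the gene's strand), with TATAAA and CCAAT in capitals where a search of both strands found them.
Zscan4b (chr7:10905051-10905200, minus strand): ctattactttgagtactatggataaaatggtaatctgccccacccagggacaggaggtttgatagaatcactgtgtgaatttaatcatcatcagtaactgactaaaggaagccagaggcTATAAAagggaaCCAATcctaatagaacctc
Zscan4c (chr7:11005595-11005744, plus strand): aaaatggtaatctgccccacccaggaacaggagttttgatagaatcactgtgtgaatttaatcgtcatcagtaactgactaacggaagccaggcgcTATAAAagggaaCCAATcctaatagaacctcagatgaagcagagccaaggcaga
Zscan4d (chr7:11166149-11166298, minus strand): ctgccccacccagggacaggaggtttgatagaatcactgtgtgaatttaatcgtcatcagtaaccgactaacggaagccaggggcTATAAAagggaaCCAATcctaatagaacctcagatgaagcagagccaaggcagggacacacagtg
Zscan4f (chr7:11397765-11397914, plus strand): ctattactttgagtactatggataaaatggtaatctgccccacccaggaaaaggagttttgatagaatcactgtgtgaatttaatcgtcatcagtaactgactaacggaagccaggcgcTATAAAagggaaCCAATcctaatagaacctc

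All 4 windows hold both letter strings, and over the aligned bases of the 300-base RefSeq entries the pairs were 95.3 to 99.3% identical. Of 19 tested genes of the list, 9 had a promoter entry. TATAAA was in 6 of these and in 13.6% of all 32851 entries of that length, and CCAAT in 8 and in 37.4%. AGGTGTG, a T-box letter string, was in 3 and 5.84%, CAGACA, a SMAD string, in 4 and 21.0%, and TTCNNNGAA, a STAT string, in 3 and 8.30%. CTTTGAA, a TCF/LEF string, and TGTGGATT, a FOXH1 string, were in none of the 9 and in 5.14 and 0.855% of all entries. With several members from 1 repeated family, these entries are not independent.

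The 15 largest rises among genes with a mean of at least 1 CPM and no overlap between the days included Olfr815, Tdpoz3, Zfp352, Tdpoz4, Olfr376, Itln1, Ccr8, Gm10696, AU019990, Colgalt2, Fgf1, Dcc, Tacr3 and B020004J07Rik. The log2 fold changes of these named genes ran between 2.76 and 3.58, and each call held under all alternatives run. Olfr815, an olfactory receptor gene, had 3.13, 2.49 and 2.44 CPM on day 2.5, against 0.212, 0.125 and 0.307 CPM on day 2, so that its day 2 libraries were at or near the level of 3 counts and its fitted fold change depends on the prior count. Dcc, the netrin receptor of axon guidance, had 27.9, 29.6 and 23.3 CPM on day 2.5, against 4.67, 3.88 and 3.26 CPM on day 2 (log2 fold change 2.80 ± 0.28, adjusted p = 3.68e-05). Fgf1, a fibroblast growth factor without a classical secretion signal, had 24.1, 23.8 and 20.2 CPM on day 2.5, against 4.35, 2.88 and 2.83 CPM on day 2 (log2 fold change 2.80 ± 0.26, adjusted p = 1.12e-05). Colgalt2, a collagen galactosyltransferase, had 15.6, 16.3 and 13.987 CPM on day 2.5, against 3.82, 1.25 and 1.91 CPM on day 2 (log2 fold change 2.83 ± 0.28, adjusted p = 1.98e-05). That the lowest day 2.5 library exceeded the highest day 2 library in these genes follows from the rule that chose them.

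The promoters of the first 2 rises and the first 2 falls with a RefSeq entry are given for the sequence context of the largest changes, 150 bases before the start as above, with TATAAA and CCAAT and the FOXH1 and T-box letter strings in capitals where found on either strand.
Olfr815 (chr10:129902727-129902876, minus strand): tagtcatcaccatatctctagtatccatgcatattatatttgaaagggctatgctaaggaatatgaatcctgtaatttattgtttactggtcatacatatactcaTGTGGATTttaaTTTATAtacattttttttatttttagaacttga
Zfp352 (chr4:90218670-90218819, plus strand): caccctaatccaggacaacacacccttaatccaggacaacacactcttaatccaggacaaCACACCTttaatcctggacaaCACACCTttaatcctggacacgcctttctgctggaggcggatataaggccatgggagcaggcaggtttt
Rsad2 (chr12:26456453-26456602, minus strand): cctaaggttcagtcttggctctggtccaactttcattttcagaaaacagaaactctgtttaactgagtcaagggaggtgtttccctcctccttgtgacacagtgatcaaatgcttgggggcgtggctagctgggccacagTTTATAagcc
Lrtm2 (chr6:119330767-119330916, minus strand): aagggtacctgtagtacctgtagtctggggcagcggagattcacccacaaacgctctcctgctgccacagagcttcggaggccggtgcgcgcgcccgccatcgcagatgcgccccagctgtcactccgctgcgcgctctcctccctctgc

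Olfr815 and Rsad2 hold TATAAA on the reverse strand, Olfr815 holds TGTGGATT, and Zfp352 holds AGGTGTG at 2 places on the reverse strand. None of the 4 strings is in the Lrtm2 window.

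Rsad2, the antiviral enzyme viperin, made the largest fall. It had 0.800, 0.146 and 0.714 CPM on day 2.5, against 1.91, 2.19 and 2.70 CPM on day 2 (log2 fold change -2.02 ± 0.36, adjusted p = 0.00151), a low level at which day 2.5 replicate 2 lay below 3 counts. Hlf, a PAR bZIP transcription factor, had 1.38, 2.05 and 1.73 CPM on day 2.5, against 2.65, 4.81 and 5.04 CPM on day 2 (log2 fold change -1.32 ± 0.25, adjusted p = 0.00223). Scn2b, a sodium channel subunit, had 1.02, 1.76 and 1.07 CPM on day 2.5, against 2.86, 3.06 and 2.34 CPM on day 2 (log2 fold change -1.10 ± 0.24, adjusted p = 0.00528). These 3 calls held under all alternatives run. Among the other 12 of the 15 largest falls were Piwil1, a PIWI protein that binds piRNA, with 1.89, 1.68 and 0.952 CPM on day 2.5, against 3.08, 3.63 and 3.87 CPM on day 2, and the anterior HOX genes Hoxb1 and Hoxd1. Hoxb1 had 1.16, 1.02 and 0.595 CPM on day 2.5, against 2.23, 1.56 and 2.34 CPM on day 2 (log2 fold change -1.14 ± 0.31, adjusted p = 0.0193), and its call was lost without day 2 replicate 3 or without day 2.5 replicate 3. The Piwil1 call was lost without day 2 replicate 2 or 3 or day 2.5 replicate 3, and that of Hoxd1 without day 2 replicate 1 or 3 or day 2.5 replicate 2 or 3. The remaining falls, Lrtm2, Oasl1, Nsg2, 9330102E08Rik, Hhip, Pstpip2, Pax8, Ankrd34a and Rnf112, also lost their call without at least 1 library of the 6.

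**Figure D2:**
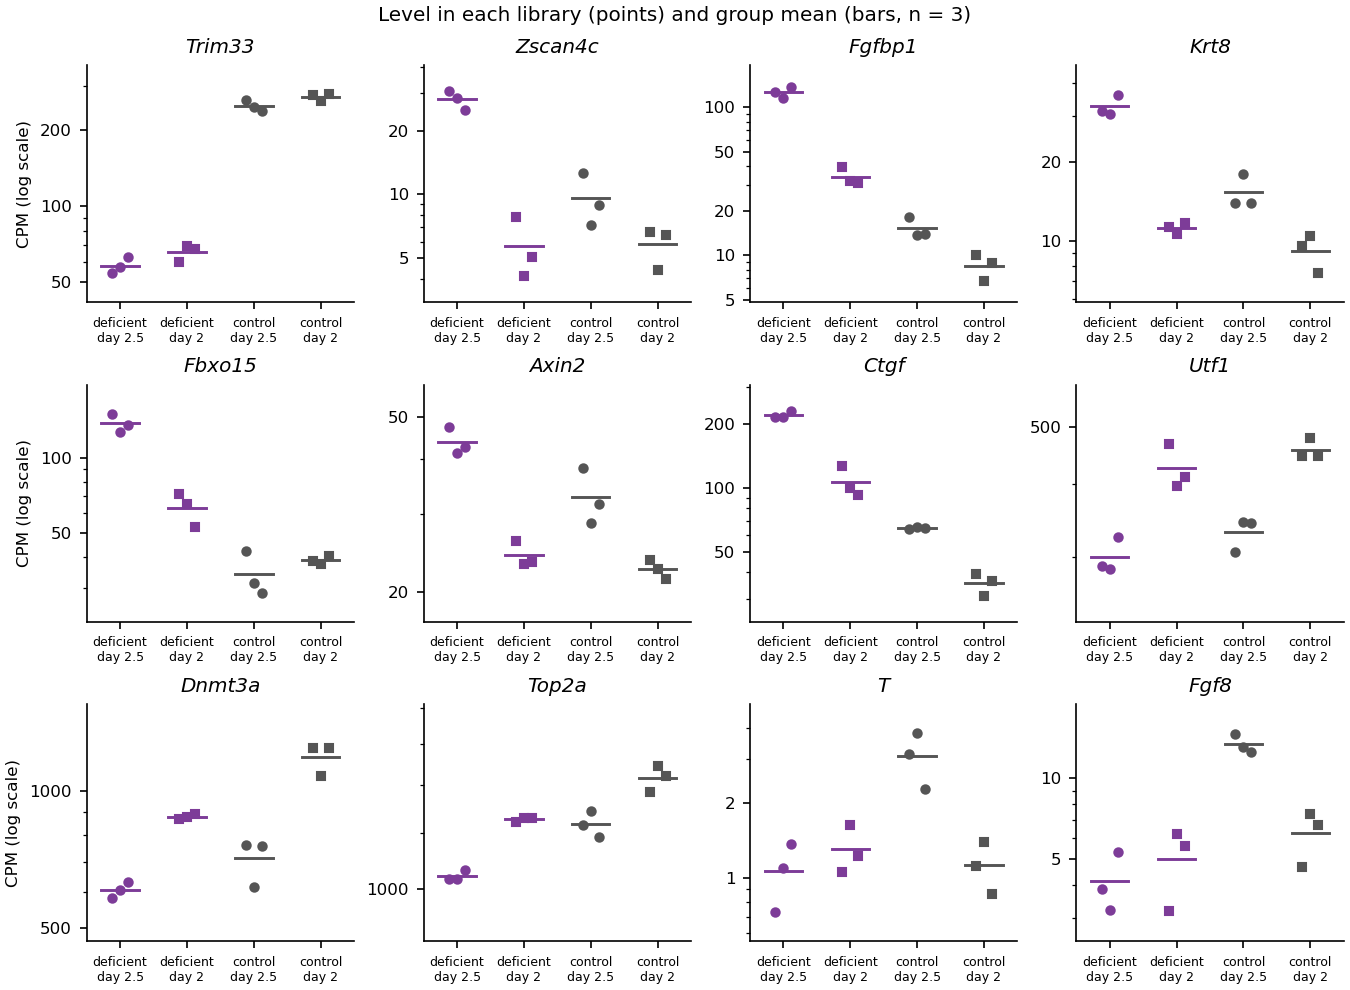
CPM on a log scale in each of the 12 libraries for 12 genes of the text, with day 2.5 Trim33-deficient, day 2 Trim33-deficient, day 2.5 control and day 2 control from left to right. Each point is 1 library and each bar the mean of 3. Zscan4c, Fgfbp1, Krt8, Fbxo15, Axin2 and Ctgf lie higher on day 2.5 than on day 2 in Trim33-deficient bodies with no overlap, Utf1, Dnmt3a and Top2a lie lower, and T and Fgf8 overlap there while their controls are higher on day 2.5.

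Genes of naive pluripotency hold cells in the state that LIF and 2i maintain. Of 21 members 6 rose, 1 fell and the other 14 gave no call, with a median log2 fold change of 0.29. The rises were Dppa3, Prdm14, Fbxo15, Tbx3, Tfcp2l1 and Klf2. In control bodies 2 members rose, 9 fell, and the median was -0.51. The falls in control bodies numbered 5 without control replicate 3 of either day. Across the day by genotype test, 7 members changed more upward in Trim33-deficient bodies and 0 more downward.

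Dppa3, a maternal factor that shields methylated DNA and is high in naive cells and germ cells, had 15.2, 17.6 and 16.7 CPM on day 2.5, against 7.42, 6.88 and 6.21 CPM on day 2 (log2 fold change 1.28 ± 0.11, adjusted p = 3.06e-06). Fbxo15, a target of OCT4 in embryonic stem cells, had 150.4, 126 and 135 CPM on day 2.5, against 71.5, 65.1 and 52.9 CPM on day 2 (log2 fold change 1.13 ± 0.13, adjusted p = 0.000158). Control bodies held 34.3 ± 7.22 CPM on day 2.5 and 38.9 ± 1.52 CPM on day 2 (SD, n = 3 each), and the 2 changes over time differed by 1.30 ± 0.19 on the log2 scale (adjusted p = 0.0069). The Fbxo15 calls, over time and between genotypes, held under every alternative run. Tfcp2l1, a naive transcription factor downstream of LIF, had 68.3, 53.5 and 54.5 CPM on day 2.5, against 48.5, 36.1 and 34.1 CPM on day 2 (log2 fold change 0.59 ± 0.14, adjusted p = 0.0159), and its call was lost without day 2 replicate 2, day 2 replicate 3 or day 2.5 replicate 1.

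Klf2 had 115, 93.3 and 86.8 CPM on day 2.5, against 84.3, 62.1 and 62.0 CPM on day 2 (log2 fold change 0.51 ± 0.15, adjusted p = 0.0455), close to the threshold. Esrrb had 152, 129.5 and 110.5 CPM on day 2.5, against 137, 109 and 95.0 CPM on day 2, which did not pass (log2 fold change 0.21 ± 0.13, adjusted p = 0.324). Both are transcription factors of the naive state and both fell in control bodies, where Klf2 held 25.9 ± 5.24 CPM on day 2.5 and 43.5 ± 4.37 CPM on day 2 (SD, n = 3 each) and Esrrb 28.002 ± 2.14 CPM on day 2.5 and 49.7 ± 3.70 CPM on day 2 (SD, n = 3 each). Fgf4, the ligand that starts ERK signalling as cells leave the naive state, fell, with 192, 204 and 226 CPM on day 2.5, against 263, 250.2 and 253 CPM on day 2 (log2 fold change -0.30 ± 0.06, adjusted p = 0.00316). The count of naive genes that rose was not stable. It was 12 without both libraries rich in Rn45s, 10 without day 2 replicate 1, 2 without day 2 replicate 2, 3 without day 2 replicate 3, 2 without day 2.5 replicate 1 and 3 without day 2.5 replicate 2.

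Of 13 genes of the general list 0 rose and 2 fell, Utf1 and Lin28b. In control bodies 1 rose and 5 fell, and 1 to 2 rose and 4 to 8 fell with single libraries left out. Pou5f1, which codes for OCT4, had 809, 857 and 822 CPM on day 2.5, against 928, 838 and 851 CPM on day 2 (log2 fold change -0.07 ± 0.06, adjusted p = 0.413), Sox2 had 201, 194 and 224 CPM on day 2.5, against 234, 212 and 202 CPM on day 2 (log2 fold change -0.06 ± 0.06, adjusted p = 0.522). Nanog had 68.7, 77.1 and 81.5 CPM on day 2.5, against 65.2, 84.8 and 77.5 CPM on day 2 (log2 fold change -0.01 ± 0.15, adjusted p = 0.982). The days overlapped for all 3. Utf1, a chromatin factor of undifferentiated cells, had 289.8, 287 and 324 CPM on day 2.5, against 468, 397 and 412 CPM on day 2 (log2 fold change -0.50 ± 0.07, adjusted p = 0.000155), with every day 2.5 library below every day 2 library. Of 13 genes of the LIF and STAT3 pathway 0 passed in either direction by edgeR and by DESeq2, and 2 had an unadjusted p under 0.05 by edgeR. 3 rose without both libraries rich in Rn45s, and 1, the kinase gene Jak1, rose in the fit of 6 libraries alone, with a replicate block and without day 2 control replicate 2 or day 2.5 control replicate 1 or 2.

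The formative and primed epiblast is the state that follows naive pluripotency. 9 of 23 of its genes fell and 1 rose, with a median log2 fold change of -0.30, and in control bodies 5 fell and 4 rose. The other 13 gave no call in Trim33-deficient bodies, among them the markers Fgf5, Otx2 and Pou3f1. Of the 23 members, 6 had a log2 fold change above 0. Dnmt3a, a de novo DNA methyltransferase, had 584, 608 and 631 CPM on day 2.5, against 866, 877 and 891 CPM on day 2 (log2 fold change -0.53 ± 0.07, adjusted p = 0.000236), and it fell in control bodies as well (control log2 fold change -0.74 ± 0.07, adjusted p = 2.87e-05). Its partner Dnmt3b had 1635, 1884 and 2133 CPM on day 2.5, against 2269, 2579.8 and 2697 CPM on day 2 (log2 fold change -0.42 ± 0.10, adjusted p = 0.0148). The Dnmt3b call was lost in the fit of the 6 Trim33-deficient libraries alone, and without day 2 replicate 2 or 3 or day 2.5 replicate 1 or 2. Fgf15, a growth factor of the primed epiblast, had 12.1, 13.9 and 17.3 CPM on day 2.5, against 18.6, 22.6 and 25.015 CPM on day 2 (log2 fold change -0.62 ± 0.13, adjusted p = 0.00395). The zinc finger gene Zic5 had 12.7, 15.4 and 17.5 CPM on day 2.5, against 21.5, 23.6 and 25.8 CPM on day 2 (log2 fold change -0.64 ± 0.11, adjusted p = 0.00134). Sox4, an SRY-box transcription factor, had 49.1, 54.0 and 57.6 CPM on day 2.5, against 75.8, 73.8 and 67.2 CPM on day 2 (log2 fold change -0.43 ± 0.07, adjusted p = 0.000629). The exception was Nes, the intermediate filament nestin, with 87.3, 102 and 102 CPM on day 2.5, against 55.2, 64.0 and 71.4 CPM on day 2 (log2 fold change 0.61 ± 0.12, adjusted p = 0.00502), which rose in control bodies too (control log2 fold change 0.77 ± 0.12, adjusted p = 0.00122).

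3 of 14 primitive streak genes rose, Snai1, Mesp2 and Nodal, and 0 fell, and in control bodies 3 rose and 0 fell. T, the T-box gene that marks the early streak, had 0.727, 1.10 and 1.37 CPM on day 2.5, against 1.06, 1.63 and 1.23 CPM on day 2, which did not pass (log2 fold change -0.30 ± 0.32, adjusted p = 0.561). Control libraries held 3.15, 3.82 and 2.27 CPM on day 2.5 and 1.12, 1.39 and 0.866 CPM on day 2 (control log2 fold change 1.42 ± 0.29, adjusted p = 0.00359), and the 2 changes differed by -1.72 ± 0.43 on the log2 scale (adjusted p = 0.0373). Fgf8, a streak ligand, had 3.86, 3.22 and 5.30 CPM on day 2.5, against 3.18, 6.19 and 5.59 CPM on day 2 (log2 fold change -0.31 ± 0.24, adjusted p = 0.413). Control libraries held 14.6, 13.1 and 12.6 CPM on day 2.5 and 4.64, 7.35 and 6.69 CPM on day 2 (control log2 fold change 1.11 ± 0.21, adjusted p = 0.00257), and the changes differed by -1.41 ± 0.32 on the log2 scale (adjusted p = 0.0252).

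The difference between genotypes for T was no longer past the threshold without any 1 of day 2 control replicates 1 and 3, day 2.5 control replicate 2, day 2 Trim33-deficient replicates 2 and 3 or day 2.5 Trim33-deficient replicates 1 and 2, with adjusted p between 0.0184 and 0.135 over all alternatives. For Fgf8 the same happened without day 2 control replicate 3, day 2.5 control replicate 3 or the same 4 Trim33-deficient libraries (adjusted p 0.00191 to 0.0958). Eomes, the T-box gene of early streak and endoderm, had 9.38, 9.80 and 13.987 CPM on day 2.5, against 12.1, 11.8 and 11.1 CPM on day 2 (log2 fold change -0.06 ± 0.17, adjusted p = 0.857), and it rose in control bodies (control log2 fold change 0.61 ± 0.16, adjusted p = 0.0168), though the difference between genotypes did not pass (difference -0.67 ± 0.23, adjusted p = 0.116). Snai1, a repressor of epithelial genes, went the other way: it had 10.038, 10.5 and 10.952 CPM on day 2.5, against 5.52, 5.06 and 4.49 CPM on day 2 (log2 fold change 1.08 ± 0.18, adjusted p = 0.00102). Control bodies held 4.39 ± 1.19 CPM on day 2.5 and 4.52 ± 1.13 CPM on day 2 (SD, n = 3 each).

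In the signalling pathways upstream, Nodal, the ligand, had 200.3, 196 and 198 CPM on day 2.5, against 143, 137 and 136 CPM on day 2 (log2 fold change 0.51 ± 0.09, adjusted p = 0.00295), with no overlap between the days. Of 17 Nodal/Activin targets 4 rose (Id3, Nodal, Bambi and Lefty1) and 0 fell. In control bodies 3 rose and 1 fell, and 0 to 3 rose and 0 to 1 fell with single libraries left out. Id3 and Bambi are also BMP targets. Lefty1, a secreted Nodal antagonist, had 231, 255 and 189 CPM on day 2.5, against 159, 169 and 172 CPM on day 2 (log2 fold change 0.43 ± 0.12, adjusted p = 0.0281), a call lost without any 1 of the day 2 replicates or day 2.5 replicates 1 and 2. Among 22 components of the pathway, the receptors Acvr2a and Tgfbr1 rose and the repressor Tgif2 fell, and these counts dropped to 0 without day 2 replicate 2, day 2.5 replicate 1 or day 2.5 replicate 2. Acvr2a had 27.8, 29.7 and 25.1 CPM on day 2.5, against 21.0, 21.6 and 22.7 CPM on day 2 (log2 fold change 0.33 ± 0.09, adjusted p = 0.0162).

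Of 21 genes of the BMP pathway and its targets 9 rose and 0 fell, with a median log2 fold change of 0.44, and 6 rose in control bodies. Bmp7, a ligand, had 10.7, 11.1 and 10.8 CPM on day 2.5, against 4.35, 5.56 and 5.72 CPM on day 2 (log2 fold change 1.04 ± 0.22, adjusted p = 0.00447). Id1, a target gene that inhibits bHLH factors, had 47.9, 48.6 and 47.1 CPM on day 2.5, against 31.0, 26.3 and 20.3 CPM on day 2 (log2 fold change 0.91 ± 0.13, adjusted p = 0.000461). Its relative Id2 had 34.8, 35.1 and 36.2 CPM on day 2.5, against 21.5, 23.5 and 23.0 CPM on day 2 (log2 fold change 0.64 ± 0.10, adjusted p = 0.000503). Msx2, a homeobox target, had 2.55, 2.56 and 2.26 CPM on day 2.5, against 0.636, 0.625 and 1.04 CPM on day 2 (log2 fold change 1.63 ± 0.27, adjusted p = 0.000701). No day 2 library reached a day 2.5 library in any of these 4 genes.

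Of 24 Wnt genes 1 rose and 3 fell. The rises numbered 4 and 3 when replicate 2 of the day 2 or of the day 2.5 controls was left out, and 2 when it was replicate 1 of either day. In control bodies 5 rose and 1 fell, and 3 to 8 rose and 1 to 2 fell with single libraries left out. Axin2, the common Wnt target and feedback inhibitor, had 47.4, 41.4 and 42.6 CPM on day 2.5, against 26.1, 23.1 and 23.4 CPM on day 2 (log2 fold change 0.86 ± 0.10, adjusted p = 2.91e-05), and it rose in control bodies as well (control log2 fold change 0.55 ± 0.10, adjusted p = 0.00177). Fzd7, a Wnt receptor, had 262, 287 and 327 CPM on day 2.5, against 357, 407 and 377 CPM on day 2 (log2 fold change -0.38 ± 0.08, adjusted p = 0.00557). The factors Tcf7 and Tcf7l1 also fell, but both calls were lost without day 2 replicate 2 or day 2.5 replicate 1 or 2. Without day 2 replicate 3 the call of at least 1 of them was lost. The ligand Wnt3 had 9.24, 10.7 and 8.45 CPM on day 2.5, against 5.73, 5.0008 and 7.50 CPM on day 2, which did not pass (log2 fold change 0.63 ± 0.24, adjusted p = 0.0933). In the Notch list 3 of 14 rose, Dll1, Nrarp and Jag2. The ligand Dll1 had 117, 99.5 and 72.9 CPM on day 2.5, against 67.5, 54.4 and 61.0 CPM on day 2 (log2 fold change 0.66 ± 0.15, adjusted p = 0.0108) and fell in control bodies (control log2 fold change -0.87 ± 0.17, adjusted p = 0.00586), a difference of 1.53 ± 0.23 on the log2 scale (adjusted p = 0.00693) that passed under every alternative run. The rise of Dll1 itself was lost in the fit of the 6 Trim33-deficient libraries alone and without day 2 replicate 2. Without day 2 replicate 2, 0 members of the list passed, and 1 passed without day 2.5 replicate 1.

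Of 16 genes of the YAP and TEAD list, named for the effectors of the Hippo pathway, 7 rose and 0 fell, and the median log2 fold change was 0.25. In control bodies 6 rose. Ctgf, a secreted matrix protein, had 216, 217 and 231 CPM on day 2.5, against 127, 100.1 and 92.6 CPM on day 2 (log2 fold change 1.06 ± 0.10, adjusted p = 9.89e-06). Cyr61, its relative, had 41.8, 39.1 and 51.9 CPM on day 2.5, against 22.8, 20.1 and 18.6 CPM on day 2 (log2 fold change 1.12 ± 0.20, adjusted p = 0.00316). Both rose in control bodies (control log2 fold change 0.87 ± 0.11, adjusted p = 0.000186 for Ctgf, control log2 fold change 1.52 ± 0.23, adjusted p = 0.00129 for Cyr61). F3, tissue factor, had 12.8, 11.4 and 11.2 CPM on day 2.5, against 8.80, 6.94 and 7.50 CPM on day 2 (log2 fold change 0.62 ± 0.12, adjusted p = 0.00319), with a difference from control of 1.02 ± 0.18 on the log2 scale (adjusted p = 0.00993).

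The FGF and ERK list had 3 rises and 1 fall among 25 genes, and 7 rises without day 2 replicate 1. In control bodies 4 rose and 3 fell, and 4 to 5 rose and 2 to 6 fell with single libraries left out. Fgfbp1, which releases FGFs from the matrix, had 127, 115 and 138 CPM on day 2.5, against 39.8, 31.6 and 30.8 CPM on day 2 (log2 fold change 1.91 ± 0.12, adjusted p = 8.32e-07). This was the smallest adjusted p of the list. Control bodies held 15.3 ± 2.41 CPM on day 2.5 and 8.52 ± 1.66 CPM on day 2 (SD, n = 3 each), and the changes differed by 1.06 ± 0.21 on the log2 scale (adjusted p = 0.0159). Fgfr2, a receptor, had 40.9, 42.4 and 55.1 CPM on day 2.5, against 25.7, 32.8 and 33.1 CPM on day 2 (log2 fold change 0.59 ± 0.12, adjusted p = 0.00369). Of 19 immediate early genes 5 rose, Atf3, Jun, Klf6, Fosl1 and Btg2, and 1 fell, and 8 rose without day 2 replicate 1. The AP-1 subunit Jun had 56.7, 48.7 and 42.0 CPM on day 2.5, against 33.6, 24.6 and 28.6 CPM on day 2 (log2 fold change 0.77 ± 0.11, adjusted p = 0.000309). The zinc finger factor Klf6 had 252, 217 and 211 CPM on day 2.5, against 144, 127 and 136 CPM on day 2 (log2 fold change 0.74 ± 0.07, adjusted p = 2.88e-06).

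**Figure D3:**
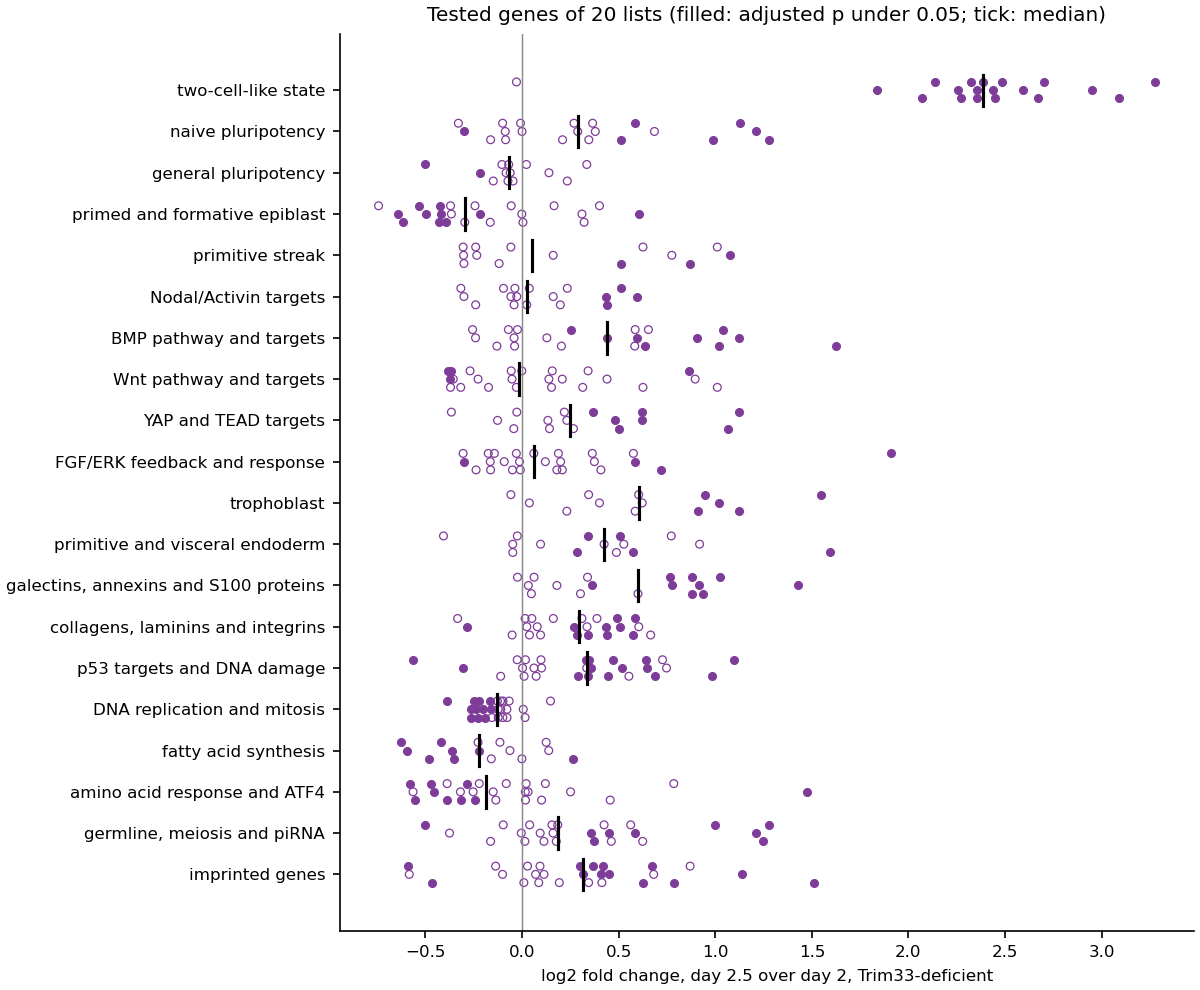
Log2 fold change of day 2.5 over day 2 in Trim33-deficient bodies (horizontal axis) for the tested genes of 20 lists (rows), 1 point per gene. Filled points passed an adjusted p of 0.05 and open points did not, and the vertical tick is the median of the tested genes of the list. The two-cell-like list stands to the right at a median of 2.39, and the genes of DNA replication and mitosis lie mostly left of 0.

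Genes of trophoblast and endoderm mark cell types outside the epiblast. 5 of 13 trophoblast genes rose and 0 fell, with a median log2 fold change of 0.60. In control bodies 2 rose and 1 fell, and 1 to 3 rose and 0 to 1 fell with single libraries left out. Krt8, a keratin of simple epithelia, had 31.4, 30.4 and 36.2 CPM on day 2.5, against 11.2, 10.6 and 11.7 CPM on day 2 (log2 fold change 1.55 ± 0.12, adjusted p = 1.36e-06). Its usual partner Krt18 had 43.4, 40.2 and 66.8 CPM on day 2.5, against 29.0, 45.3 and 38.8 CPM on day 2 and did not pass (log2 fold change 0.40 ± 0.42, adjusted p = 0.571). Tfap2c, an AP-2 factor of trophoblast and germ cells, had 20.6, 21.1 and 20.7 CPM on day 2.5, against 14.001, 9.75 and 9.28 CPM on day 2 (log2 fold change 0.94 ± 0.16, adjusted p = 0.00112). Gata3, Hand1 and Krt19 also rose but were low, at a day 2.5 mean of 3.52, 1.61 and 5.13 CPM, and the count of the list was 3 without day 2 replicate 1, 2 without day 2 replicate 2, 3 without day 2 replicate 3, 2 without day 2.5 replicate 2 and 3 without day 2.5 replicate 3.

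Among 15 genes of primitive and visceral endoderm, 5 rose, Foxq1, Col4a2, Lama1, Sparc and Col4a1, and 0 fell. Col4a2, Col4a1 and Lama1 code for basement membrane chains. The count was 1 without day 2 replicate 2 and 3 without day 2 replicate 3. In control bodies 4 rose and 0 fell. Lama1, a laminin chain, had 20.7, 22.5 and 23.6 CPM on day 2.5, against 14.4, 13.9 and 18.4 CPM on day 2 (log2 fold change 0.51 ± 0.11, adjusted p = 0.00662), and rose in control bodies (control log2 fold change 0.74 ± 0.11, adjusted p = 0.000539). Of 11 genes of definitive endoderm Cxcr4 and Foxa1 rose. Foxa1, a pioneer factor, had 8.58, 7.83 and 4.88 CPM on day 2.5, against 4.35, 3.25 and 3.13 CPM on day 2 (log2 fold change 1.01 ± 0.22, adjusted p = 0.00574). Of 17 genes of mesoderm, blood and heart precursors, Tbx20, Hand1 and Tbx3 rose, and Hoxb1 and Lmo2 fell. The heart T-box gene Tbx20 had 5.53, 5.12 and 5.77 CPM on day 2.5, against 2.55, 2.56 and 2.89 CPM on day 2 (log2 fold change 1.03 ± 0.18, adjusted p = 0.00103). Lmo2, an adaptor of early blood, had 3.64, 3.15 and 3.57 CPM on day 2.5, against 6.58, 6.38 and 6.39 CPM on day 2 (log2 fold change -0.90 ± 0.19, adjusted p = 0.00438). Of 12 neuroectoderm genes Nes and Ncam1 rose, and Zic2 and Sox3 fell.

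Of 9 tested fibroblast markers, Col1a1 and Col5a1 rose and Dcn fell, and the summed level of the list was 56.7 to 61.7 CPM in the day 2.5 and 48.7 to 54.1 CPM in the day 2 Trim33-deficient libraries. Postn, Lum, S100a4 and Fap did not pass the filter on low counts.

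9 of 17 galectins, annexins and S100 proteins, which act at membranes and the cytoskeleton, rose and 0 fell, with a median log2 fold change of 0.60, while in control bodies 2 rose and 3 fell (1 to 3 and 2 to 3 with single libraries left out). The rises in Trim33-deficient bodies numbered 5 without day 2 replicate 2 and 5 without day 2.5 replicate 1. Ahnak, a giant scaffold that S100a10 binds, had 107, 69.3 and 88.1 CPM on day 2.5, against 43.0, 22.8 and 34.2 CPM on day 2 (log2 fold change 1.43 ± 0.29, adjusted p = 0.0103). S100a10 itself had 44.2, 36.9 and 36.4 CPM on day 2.5, against 21.4, 21.8 and 20.5 CPM on day 2 (log2 fold change 0.88 ± 0.12, adjusted p = 0.000146). Lgals1, galectin-1, had 82.5, 73.3 and 78.1 CPM on day 2.5, against 47.7, 36.8 and 43.2 CPM on day 2 (log2 fold change 0.88 ± 0.10, adjusted p = 2.93e-05). Lgals3, galectin-3, had 18.6, 14.7 and 15.4 CPM on day 2.5, against 11.5, 7.06 and 7.81 CPM on day 2 (log2 fold change 0.92 ± 0.21, adjusted p = 0.00943). It fell in control bodies, which held 1.64 ± 0.581 CPM on day 2.5 and 5.28 ± 1.53 CPM on day 2 (SD, n = 3 each). The 2 changes differed by 2.59 ± 0.36 on the log2 scale (adjusted p = 0.00335), under every alternative run, whereas the rise in Trim33-deficient bodies was lost without day 2 replicate 2 or 3 or day 2.5 replicate 1.

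Of 24 collagens, laminins and integrins 9 rose and 1 fell. In control bodies 6 rose and 3 fell, and the falls numbered 1 without control replicate 3 of either day. The rises in Trim33-deficient bodies numbered 2 without day 2 replicate 2 and 5 without day 2 replicate 3 or day 2.5 replicate 3. Itgb1, the integrin subunit that most matrix receptors share, had 265, 263 and 253 CPM on day 2.5, against 229, 208 and 213 CPM on day 2 (log2 fold change 0.27 ± 0.05, adjusted p = 0.00132). Its partner Itgav had 71.5, 70.6 and 65.1 CPM on day 2.5, against 51.9, 51.8 and 49.8 CPM on day 2 (log2 fold change 0.43 ± 0.07, adjusted p = 0.000376). Itga6, a laminin receptor subunit, was the member that fell, with 170.1, 181 and 196 CPM on day 2.5, against 219, 233 and 214 CPM on day 2 (log2 fold change -0.28 ± 0.06, adjusted p = 0.00298). In the list of epithelial and mesenchymal genes Snai1 and Ovol1 were the 2 rises among 20, and 0 fell. Epcam, an adhesion protein of epithelial cells, had 419.6, 437 and 432 CPM on day 2.5, against 391, 405 and 399 CPM on day 2 and did not pass (log2 fold change 0.11 ± 0.04, adjusted p = 0.106).

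13 of 28 genes of the list of p53 targets and DNA damage rose and 2 fell, with a median log2 fold change of 0.34. In control bodies 2 rose and 2 fell, and 1 to 4 rose and 2 to 4 fell with single libraries left out. Perp, a desmosome protein, had 87.2, 78.5 and 63.9 CPM on day 2.5, against 41.9, 33.9 and 32.3 CPM on day 2 (log2 fold change 1.10 ± 0.13, adjusted p = 9.56e-05). Mdm2, the ubiquitin ligase that holds p53 in check, had 456, 435 and 406 CPM on day 2.5, against 294, 256 and 281 CPM on day 2 (log2 fold change 0.64 ± 0.10, adjusted p = 0.000842). Trp53inp1 had 1283, 1241 and 1102 CPM on day 2.5, against 762, 719.9 and 767 CPM on day 2 (log2 fold change 0.69 ± 0.10, adjusted p = 0.000999). Control bodies held 180.1 ± 17.9 CPM on day 2.5 and 182 ± 25.7 CPM on day 2 (SD, n = 3 each) of Mdm2 and 465 ± 65.6 CPM on day 2.5 and 475 ± 61.7 CPM on day 2 (SD, n = 3 each) of Trp53inp1. The changes over time differed between genotypes by 0.65 ± 0.14 on the log2 scale (adjusted p = 0.0252) for Mdm2 and 0.72 ± 0.15 on the log2 scale (adjusted p = 0.0229) for Trp53inp1. The 2 members that fell were Gadd45a and Sesn1.

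The cell cycle inhibitor Cdkn1a, also a p53 target, had 184, 179 and 152 CPM on day 2.5, against 127, 113 and 119 CPM on day 2 (log2 fold change 0.52 ± 0.15, adjusted p = 0.0367), and its call was lost without any 1 of the day 2 replicates, day 2.5 replicates 1 and 2 or control day 2.5 replicate 3. In the Bcl2 family the anti-apoptotic Bcl2l1 had 88.8, 85.7 and 87.3 CPM on day 2.5, against 69.4, 69.0 and 69.7 CPM on day 2 (log2 fold change 0.33 ± 0.06, adjusted p = 0.00291), the BH3-only gene Pmaip1 had 353, 384 and 373 CPM on day 2.5, against 279, 289 and 306 CPM on day 2 (log2 fold change 0.34 ± 0.05, adjusted p = 0.000317). The effector Bak1 had 48.4, 47.0 and 51.6 CPM on day 2.5, against 66.0, 65.0 and 64.9 CPM on day 2 (log2 fold change -0.41 ± 0.06, adjusted p = 0.000288). Bok, another effector, fell with 13.6, 11.9 and 14.9 CPM on day 2.5, against 17.2, 17.9 and 21.7 CPM on day 2 (log2 fold change -0.50 ± 0.12, adjusted p = 0.01), a call lost without day 2 replicate 3 or day 2.5 replicate 2.

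11 of 25 genes of DNA replication and mitosis fell and 0 rose, with a median log2 fold change of -0.13, and in control bodies 5 fell. The control count was 2 without day 2 control replicate 3 or day 2.5 control replicate 2 or 3, and 3 without control replicate 1 of either day, day 2 Trim33-deficient replicate 3 or day 2.5 Trim33-deficient replicate 1 or 2. In Trim33-deficient bodies, without day 2.5 replicate 1 or 2, 7 and 6 fell. Mcm2, a subunit of the replicative helicase, had 602, 616 and 635 CPM on day 2.5, against 733, 746 and 720.1 CPM on day 2 (log2 fold change -0.25 ± 0.04, adjusted p = 0.000806). Top2a, topoisomerase II, had 1032, 1033 and 1065 CPM on day 2.5, against 1243, 1259.5 and 1257 CPM on day 2 (log2 fold change -0.26 ± 0.05, adjusted p = 0.00134). The days did not overlap for either.

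7 of 15 genes of fatty acid synthesis fell and 1 rose, and 7 fell in control bodies. The control count was 3 without day 2.5 control replicate 3 and 4 without day 2.5 control replicate 1. Scd2, a desaturase, had 542, 532 and 552 CPM on day 2.5, against 699, 899 and 856 CPM on day 2 (log2 fold change -0.59 ± 0.10, adjusted p = 0.00127). Acly, which makes cytosolic acetyl-CoA, had 585, 586 and 630.4 CPM on day 2.5, against 679, 711 and 713 CPM on day 2 (log2 fold change -0.22 ± 0.05, adjusted p = 0.00688). Of 24 genes of cholesterol synthesis 6 fell and 1 rose, and 3 fell without day 2 replicate 2, day 2 replicate 3 or day 2.5 replicate 2. In control bodies 11 fell. Lss, lanosterol synthase, had 121, 118 and 125 CPM on day 2.5, against 138, 161 and 152 CPM on day 2 (log2 fold change -0.31 ± 0.07, adjusted p = 0.00546). Cyp51, lanosterol demethylase, was the member that rose, with 359, 338 and 315 CPM on day 2.5, against 293, 281 and 291 CPM on day 2 (log2 fold change 0.22 ± 0.05, adjusted p = 0.00688), and it fell in control bodies (control log2 fold change -0.20 ± 0.05, adjusted p = 0.0177), a difference of 0.42 ± 0.07 on the log2 scale (adjusted p = 0.00719).

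Of 26 genes of the amino acid response 8 fell and 1 rose, and 5 fell without day 2 replicate 2 or day 2.5 replicate 2. In control bodies 13 fell and 0 rose. Shmt2, a mitochondrial serine hydroxymethyltransferase, had 112, 112 and 108 CPM on day 2.5, against 156, 155 and 149 CPM on day 2 (log2 fold change -0.47 ± 0.05, adjusted p = 2.05e-05). Gpt2, an alanine transaminase, had 50.1, 51.9 and 62.7 CPM on day 2.5, against 81.6, 85.3 and 75.7 CPM on day 2 (log2 fold change -0.55 ± 0.08, adjusted p = 0.000226). Asns, asparagine synthetase, had 147, 133 and 132 CPM on day 2.5, against 173, 179 and 160.0 CPM on day 2 (log2 fold change -0.32 ± 0.06, adjusted p = 0.00214). All 3 fell in control bodies too, Shmt2 with control log2 fold change -0.49 ± 0.05, adjusted p = 2.9e-05. Atf3, a stress-induced bZIP factor, was the member that rose, with 5.24, 5.34 and 4.88 CPM on day 2.5, against 1.91, 1.5002 and 2.15 CPM on day 2 (log2 fold change 1.47 ± 0.25, adjusted p = 0.000986).

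2 of 28 glycolysis and hypoxia genes fell, Gapdh and Ldha, and P4ha2 rose, with a median log2 fold change of -0.34. In a fit of the 6 Trim33-deficient libraries alone 20 fell. Leaving out replicate 2 of the controls gave 9 for day 2 and 5 for day 2.5. Leaving out Trim33-deficient libraries gave 0 for day 2 replicate 2, and 1 for day 2 replicate 3 or day 2.5 replicate 1. Ldha, lactate dehydrogenase A, had 1004, 1081 and 1067 CPM on day 2.5, against 1244, 1413 and 1399 CPM on day 2 (log2 fold change -0.36 ± 0.09, adjusted p = 0.014), a call lost without day 2 replicates 2 or 3 or day 2.5 replicate 1. P4ha2, a collagen prolyl hydroxylase, had 48.3, 54.4 and 44.9 CPM on day 2.5, against 26.8, 22.6 and 20.5 CPM on day 2 (log2 fold change 1.09 ± 0.15, adjusted p = 0.000419). Gapdh has many processed copies in the mouse genome, and its level of 4.77 CPM on day 2.5 rests on the few reads assigned to it. Of 32 nuclear genes of oxidative phosphorylation 1 rose and 1 fell, and of 47 ribosomal protein genes 1 rose and 1 fell. In control bodies 0 and 1 rose and 6 and 7 fell in these 2 lists. Those falls numbered 2 to 6 and 3 to 6 with single libraries left out. The median log2 fold change of the oxidative phosphorylation list was -0.083 in Trim33-deficient and -0.056 in control bodies. Its summed level in Trim33-deficient libraries was 6734 to 6806 CPM on day 2.5 and 7120 to 7241 CPM on day 2. In the day by genotype test 1 member of it, Cox5b, differed upward and 0 downward.

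8 of 25 genes of the germline list rose and 1 fell, against 1 and 8 in control bodies, and 8 members changed more upward in Trim33-deficient bodies. The falls in control bodies numbered 5 without control replicate 3 of either day. The count of rises was 5 without day 2 replicate 2 or day 2.5 replicate 1 and 4 without day 2.5 replicate 2. Stk31, a kinase-like protein of the testis, had 37.2, 35.6 and 34.3 CPM on day 2.5, against 26.2, 24.3 and 27.9 CPM on day 2 (log2 fold change 0.45 ± 0.08, adjusted p = 0.00194). Control libraries held 16.5, 20.5 and 18.3 CPM on day 2.5 and 25.9, 25.4 and 26.4 CPM on day 2, and the changes differed by 0.94 ± 0.12 on the log2 scale (adjusted p = 0.0017). Stra8, the gatekeeper of meiosis, had 2.98, 3.58 and 2.38 CPM on day 2.5, against 1.80, 1.06 and 1.04 CPM on day 2 (log2 fold change 1.25 ± 0.26, adjusted p = 0.00493). Tdrd12, a Tudor protein of the piRNA pathway, was the member that fell, with 29.6, 29.8 and 33.7 CPM on day 2.5, against 45.0, 44.2 and 43.2 CPM on day 2 (log2 fold change -0.50 ± 0.11, adjusted p = 0.00519).

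Imprinted genes are expressed from 1 parental allele. 11 of 27 rose and 2 fell, with a median log2 fold change of 0.32. In control bodies 4 rose and 6 fell. Leaving out day 2 control replicate 3 gave 1 rise and 3 falls there. Leaving out replicate 3 of the day 2.5 controls gave 2 rises and 2 falls, and leaving out replicate 2 gave 3 falls. Plagl1, a zinc finger growth regulator, had 39.6, 37.6 and 25.2 CPM on day 2.5, against 11.031, 11.6 and 12.968 CPM on day 2 (log2 fold change 1.51 ± 0.18, adjusted p = 9e-05). H19, a non-coding RNA, had 149, 154 and 198 CPM on day 2.5, against 91.2, 74.4 and 64.2 CPM on day 2 (log2 fold change 1.14 ± 0.19, adjusted p = 0.00438). Mest, a hydrolase-like protein, had 499, 501 and 530.1 CPM on day 2.5, against 418, 403 and 408 CPM on day 2 (log2 fold change 0.32 ± 0.05, adjusted p = 0.000409). The days did not overlap for these 3. Of 14 genes of DNA methylation 0 rose and 3 fell, Dnmt3a and Dnmt3b and the NuRD subunit Mbd3. In control bodies 0 rose and 6 fell.

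Among the remaining lists, 3 of 13 interferon genes fell, Rsad2, Oasl2 and Irf1, and 0 rose. 1 fell without day 2 replicate 2, day 2.5 replicate 1 or day 2.5 replicate 2. In control bodies 4 fell and 0 rose, and 2 to 5 fell with single libraries left out. Of 19 heat shock genes 4 rose and 2 fell. Hspa1b, an inducible chaperone with a near-identical neighbour Hspa1a, had 8.95, 9.88 and 8.63 CPM on day 2.5, against 5.09, 4.88 and 5.90 CPM on day 2 (log2 fold change 0.78 ± 0.18, adjusted p = 0.00701). Without day 2 replicate 2 or day 2.5 replicate 1, 2 rose. Of 15 genes of axial patterning Meis1 rose and Hoxd1, Hoxb1 and Stra6 fell.

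Control bodies were tested over the same interval. 1177 genes rose and 1136 fell there (16.1% of those tested, 8.20% higher and 7.91% lower), with 143 rises and 154 falls past 2-fold and 1 rise and 12 falls past 4-fold. Of the 1305 genes that rose in Trim33-deficient bodies, 355 also rose in control, 32 fell there and 918 had no call. Of the 995 that fell, 308 fell in control, 8 rose and 679 had no call. No call in 1 genotype does not show a difference, which was tested by the day by genotype term. 397 genes changed more upward in Trim33-deficient bodies and 178 more downward, 4.01% of those tested (2.77% and 1.24%), and this count moved between 119 and 1217 when single libraries were left out.

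The 8 largest differences upward were Lgals3, Smok4a, AU019990, Gm10696, Gm2016, Aqp9, Gcm1 and Ttn. AU019990 had 5.96, 5.34 and 5.95 CPM on day 2.5, against 0.849, 0.625 and 0.922 CPM on day 2. Control bodies held 1.52 ± 0.228 CPM on day 2.5 and 1.16 ± 0.678 CPM on day 2 (SD, n = 3 each), a difference of 2.45 ± 0.45 on the log2 scale (adjusted p = 0.0102) that passed under every alternative run. Gcm1, the transcription factor of the placental labyrinth, had 1.67, 2.41 and 3.93 CPM on day 2.5, against 1.38, 1.63 and 0.676 CPM on day 2 (log2 fold change 1.17 ± 0.36, adjusted p = 0.0364) and its difference of 2.11 ± 0.55 on the log2 scale (adjusted p = 0.0434) did not pass without any 1 of 8 libraries. The 8 largest differences downward were T, Ano1, Dok5, Fgf8, Mogat2, Ppp4r4, Trh and Adamts15. Adamts15, a matrix protease, had 12.3, 13.972 and 20.2 CPM on day 2.5, against 21.2, 21.1 and 18.9 CPM on day 2 in Trim33-deficient bodies, against 32.2 ± 3.11 CPM on day 2.5 and 19.129 ± 1.80 CPM on day 2 (SD, n = 3 each) in control, a difference of -1.13 ± 0.21 on the log2 scale (adjusted p = 0.0113). This was the 1 of the 8 that passed under every alternative run. Trh, the precursor of thyrotropin-releasing hormone, had 86.9, 111 and 126 CPM on day 2.5, against 73.8, 108 and 95.1 CPM on day 2 (log2 fold change 0.22 ± 0.16, adjusted p = 0.401). Control libraries held 335, 316 and 321 CPM on day 2.5 and 129, 142 and 105 CPM on day 2. Its difference of -1.15 ± 0.23 on the log2 scale (adjusted p = 0.0274) was lost without any 1 of 7 libraries. Dok5, an adaptor of receptor kinases, had 1.16, 1.61 and 1.61 CPM on day 2.5, against 1.17, 1.31 and 1.29 CPM on day 2. Control libraries held 4.73, 7.46 and 4.85 and 1.92, 1.16 and 1.89 CPM on day 2.5 and day 2.

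**Figure D4:**
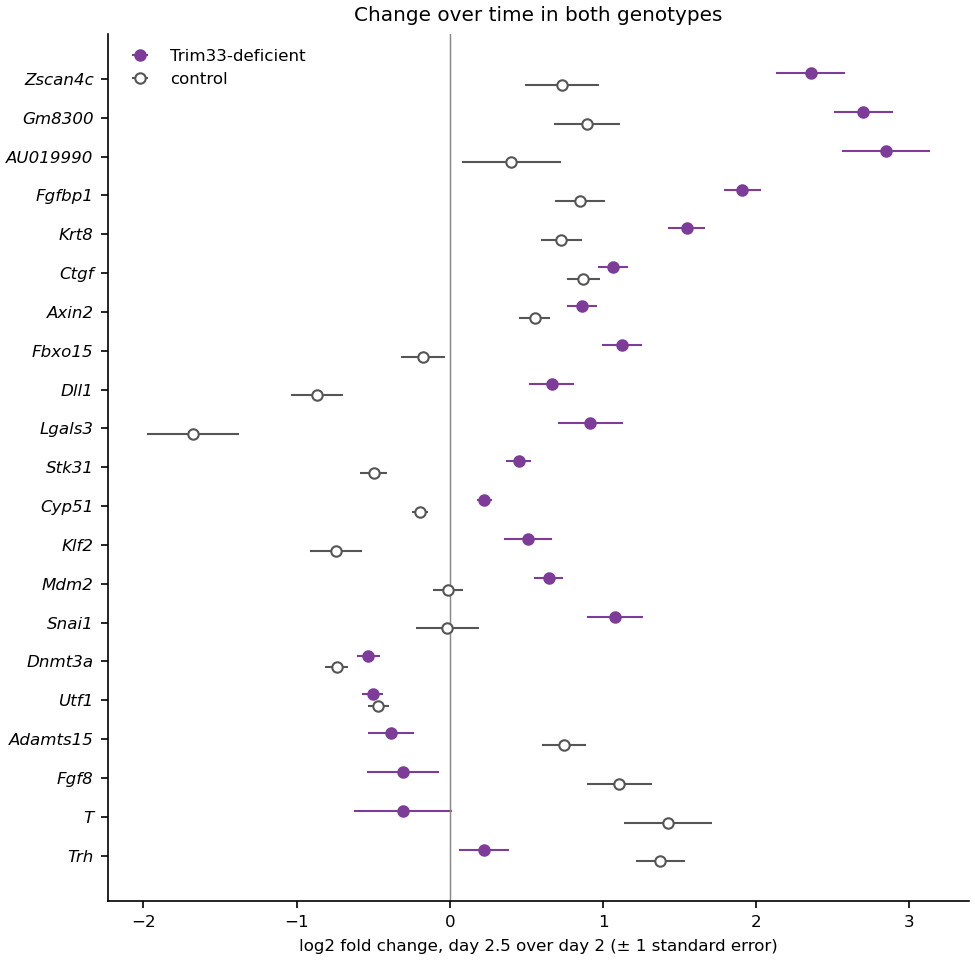
Log2 fold change of day 2.5 over day 2 in Trim33-deficient (filled) and control bodies (open) for genes of the text, with bars of 1 standard error from the edgeR fit of 3 libraries a group. Fbxo15, Stk31, Dll1, Lgals3 and Cyp51 lie above 0 in Trim33-deficient and below 0 in control bodies, T, Fgf8 and Adamts15 the other way round, and Axin2, Ctgf, Dnmt3a and Utf1 have the same sign in both. The changes of T, Fgf8 and Adamts15 in Trim33-deficient bodies did not pass the test.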

How the data were processed

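RNA was sequenced from 12 libraries of mouse embryoid bodies, 3 for each genotype and day. Per the submitters' processing notes, STAR, HTSeq and DESeq were used with mm9; the sources used here give no versions, annotation or use of strand. The values are raw counts per gene as deposited by the authors. PCR duplicates cannot be told from separate molecules in them. Rows HTSeq adds for unassigned reads were left out of library sizes (55.9 to 60.5% of the reads HTSeq listed were in no feature and 0.144 to 0.190% were ambiguous). Gene names turned into dates in 1 library (27 names) were restored by row position.

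Samples were grouped by their titles. Per the labels' protocols there were 3 independent pairs of control and Trim33-deficient bodies. They do not say whether pairs differ in line, culture or day, so the p-values reflect only how these libraries vary, which may be technical. Genes passing edgeR's filterByExpr were scaled by TMM and fitted with edgeR 4.0.16 (R 4.3.3) by the robust quasi-likelihood method, with 4 group means over all 12 libraries and 8 residual degrees of freedom. Benjamini-Hochberg adjustment ran over all tested genes, with a threshold of 0.05. Log2 fold changes have standard errors computed from the quasi-likelihood F statistic. The scripts were tested on simulated data. DESeq2 1.42.0, other scalings, filters, a replicate block and leaving out libraries were alternatives.

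Genes named are Trim33, Rn45s, the 15 largest rises and falls past the threshold (mean of at least 1 CPM, days not overlapping), up to 4 members of each list by smallest adjusted p, and the 8 largest differences between genotypes each way; 1 gene that the rule named is not reported here. Members, lists and this rule were chosen with earlier results of these data known, and a further 23 genes were named after their values were seen, as were other genes given by symbol only in the counts of their list. Promoters are from the RefSeq table of build GRCm38.p6, matched by symbol, while the counts rest on mm9.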

Additional observations from a re-analysis of the deposited data

Results flagged for a closer look

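For 48 genes named in the report the change between the days differed between Trim33-deficient and control bodies in the day by genotype test, edgeR's quasi-likelihood test with Benjamini-Hochberg adjustment, with adjusted p between 0.0017 and 0.0485. Each value here is the log2 fold change of day 2.5 over day 2 in Trim33-deficient bodies minus that in control bodies, with its standard error from 3 libraries a group. In the two-cell-like list the difference was 1.86 ± 0.38 for Zscan4f, 1.81 ± 0.30 for Gm8300, 1.62 ± 0.33 for Zscan4c, 1.54 ± 0.34 for Zscan4d, 1.54 ± 0.33 for Arg2, 1.39 ± 0.33 for Usp17lc and 1.30 ± 0.27 for Tmem92. Among the other largest rises and largest differences upward it was 2.49 ± 0.60 for Smok4a, 2.45 ± 0.45 for AU019990, 2.35 ± 0.59 for Gm10696, 2.25 ± 0.48 for Gm2016, 2.11 ± 0.44 for Aqp9, 2.11 ± 0.55 for Gcm1, 2.08 ± 0.50 for Ttn, 1.94 ± 0.39 for Fgf1, 1.76 ± 0.43 for Colgalt2 and 1.74 ± 0.43 for Dcc. Naive pluripotency genes changed more upward in Trim33-deficient bodies, by 1.30 ± 0.19 for Fbxo15, 1.25 ± 0.23 for Klf2, 1.04 ± 0.20 for Esrrb, 0.90 ± 0.23 for Tfcp2l1 and 0.69 ± 0.17 for Dppa3. The general pluripotency list held 2 differences upward, Dppa4 and Dppa5a, and 1 downward, -0.46 ± 0.09 for Lin28b. Among signalling genes and their targets named here it was 1.53 ± 0.23 for Dll1, 1.06 ± 0.21 for Fgfbp1, 1.02 ± 0.18 for F3 and 0.52 ± 0.09 for Klf6. In the same kinds of list Bmpr1a, Smad1, Sfrp1, Sfrp2 and Fgfr1 differed downward. Among streak genes and the other largest differences downward the values were -1.72 ± 0.43 for T, -1.67 ± 0.44 for Ano1, -1.55 ± 0.39 for Dok5, -1.41 ± 0.32 for Fgf8, -1.25 ± 0.32 for Mogat2, -1.16 ± 0.31 for Ppp4r4, -1.15 ± 0.23 for Trh and -1.13 ± 0.21 for Adamts15. Among the named genes of the epithelial, membrane and matrix lists it was 2.59 ± 0.36 for Lgals3, 1.09 ± 0.28 for Snai1, 0.82 ± 0.18 for Krt8, 0.67 ± 0.18 for S100a10 and 0.37 ± 0.09 for Itgav. In the epithelial and mesenchymal list Mmp2 differed downward. In the p53 list 5 genes, among them Trp53inp1 (0.72 ± 0.15) and Mdm2 (0.65 ± 0.14), differed upward and 0 downward. The Bcl2 list held 1 difference each way, 0.41 ± 0.09 for Bcl2l1 and -0.67 ± 0.16 for Bok. Other lists held differences upward of 1.08 ± 0.26 for Hspa1b, 0.94 ± 0.12 for Stk31, 0.42 ± 0.07 for Cyp51 and 0.28 ± 0.07 for Mest. In the amino acid response list the only difference was downward, for Phgdh. Of the 48 genes, 10 kept this call under every alternative run, AU019990, Adamts15, Cyp51, Dll1, F3, Fbxo15, Gm8300, Klf6, Lgals3 and Stk31, and the others lost it under at least 1, most often where a library was left out. With 3 libraries a group, single libraries were not examined as outlying values.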

How the results depend on the processing

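The count of genes that changed over time in Trim33-deficient bodies, 2300, lay between 2169 and 3316 under the other size factors, both other filters, DESeq2, the fit of 6 libraries alone and the removal of the ribosomal RNA rows or of both libraries rich in Rn45s. Leaving out single libraries gave 1101 to 2780 genes, 691 to 1509 higher and 410 to 1271 lower. The fit of 6 libraries alone gave 1543 lower genes, and 1384 changed genes in control bodies. For controls, leaving out single libraries gave 1235 to 2393, and for the genotype-by-day difference 119 to 1217 against 575. Each fit with 1 library fewer left that group 2 libraries whose spread was pooled with the other groups.

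The replicate numbers were not taken as pairs. Same-numbered Trim33-deficient libraries of the 2 days had correlations of deviations of 0.182, -0.0181 and 0.0878, and day 2.5 replicates 2 and 3 correlated best with another number. Same-numbered controls of the 2 days had 0.365, 0.451 and 0.032, replicates 1 and 2 correlating best with their own number. Same-numbered libraries of the 2 genotypes had -0.00944, -0.033 and -0.0133 on day 2.5 and 0.0745, 0.172 and -0.0788 on day 2. With a replicate block the counts were 2780 in Trim33-deficient bodies, 2776 in control bodies and 1169 for the genotype-by-day difference. With a replicate block and the 6 libraries compared they were 3913 (2096 higher and 1817 lower) and 4641 in control bodies.

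Of 155 changed genes that the rule named, 97 kept their call under every alternative, and for the others the cause was not tested. Direction turned in 11 cases, all but 1 of them with an adjusted p above 0.05. Rn45s was 1.11 without both libraries rich in it (adjusted p = 0.0116, edgeR) and ran between -1.70 and 1.11 over single libraries left out, where Smok4a ran between -0.000914 and 0.29, Trim66 between -0.27 and 0.13, Nanog between -0.097 and 0.079 and Eomes between -0.27 and 0.046. Nanog was 0.0057 with the replicate block and 0.0043 with the block over 6 libraries. Depth limits low genes: a count of 3 equals 0.179 to 0.318 CPM.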
